A study of Homo sapiens with 6 samples.

Results

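The insulin-like growth factor (IGF) binding proteins and the receptors of the IGF and insulin axis were followed across 6 RNA sequencing libraries of HCCLM3 cells. The 10 genes were chosen by name from the 35856 genes of the deposited table and comprise the binding proteins IGFBP1 to IGFBP7 and the receptors IGF1R, IGF2R and INSR. All 10 were among the 20741 genes that passed the filter on low counts, IGFBP1 through its counts in the LINC00862 group alone. HCCLM3 is a permanent cell line derived from human hepatocellular carcinoma. The labels name transfection with either a vector carrying LINC00862, a long noncoding RNA, or an empty vector, and divide the libraries into LINC00862 (3 libraries) and NC (3 libraries), called Empty here. The study's methods give pcDNA3.1 as the vector for LINC00862, and whether transfection was transient or stable was not given for these libraries. The comparison asks which transcripts differ when LINC00862 is overexpressed. No source states whether the libraries of a group came from separate cultures, and the p-values therefore measure the spread between these libraries, which may be technical. Each group consisted of its own cells, so an effect of LINC00862 and a difference between the cells themselves cannot be told apart.

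IGF1 and IGF2 are peptide hormones that act mainly through IGF1R, a receptor tyrosine kinase closely related to the insulin receptor INSR. IGF2R has no kinase and carries IGF2, together with lysosomal enzymes tagged with mannose 6-phosphate, into the cell for degradation or sorting. The IGF binding proteins are secreted and hold IGFs away from the receptors until proteases cleave them, and liver is a main source of circulating IGF1 and of IGFBP1.

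The binding proteins share an amino-terminal domain rich in cysteine, and the stretch that codes for its central cysteines is shown because it recurs in most members of a family whose transcripts were called in different directions below. The 24 bases were read from the coding sequence in exon 1 of the GENCODE 29 transcripts (GRCh38) as the pattern in which any codon, a cysteine codon, any codon, a pair of cysteine codons, any pair of codons and a cysteine codon follow each other. Capitals mark the cysteine codons, and each line runs 5′ to 3′ on the coding strand.
IGFBP1: ggcTGCggcTGTTGCccgatgTGC
IGFBP2: ggcTGCggcTGCTGCtcggtgTGC
IGFBP3: ggcTGCggcTGCTGCctgacgTGC
IGFBP4: ggcTGCggcTGTTGCgccactTGC
IGFBP5: ggcTGCggcTGCTGCatgaccTGC
IGFBP7: gcgTGCggcTGCTGCcctatgTGC
These stretches lie at chr7:45888818-45888841 (plus strand), chr2:216633770-216633793 (plus), chr7:45920922-45920945 (minus), chr17:40443889-40443912 (plus), chr2:216694599-216694622 (minus) and chr4:57110163-57110186 (minus), in the same order. The pattern was present once in 6 of the 7 binding protein transcripts and was not found in IGFBP6. Cysteine codons made up 5.85% (IGFBP2) to 8.14% (IGFBP4) of all codons, with 6.67% in IGFBP6.

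The total counts lay between 58241123 and 68229070 per library. LINC00862 itself had an FPKM of 0.0425, 0.0884 and 0.0214 in Empty against 0.530, 0.506 and 0.312 in its own group (log2 fold change 3.22 by edgeR), in the direction of the labels. It had 11, 21 and 6 counts in Empty and passed the filter through the group where it was high, so its p-value is not given as support. The groups differed widely, since the quasi-likelihood test of edgeR, adjusted by Benjamini-Hochberg, called 64.2% of all tested genes (34.4% higher and 29.8% lower in LINC00862), and 71.1% had FPKM values that did not overlap between the groups. In each library the leading 10 genes held 8.42% to 11.7% of all counts in Empty and 19.4% to 29.2% in LINC00862. Across all tested genes the median log2 fold change was 0.11 after TMM, 0.32 after upper quartile and -0.05 after plain library size scaling, and fold changes below are on the TMM scale.

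Of the 10 genes, 3 were called higher in LINC00862 (IGFBP1, IGFBP5 and INSR), 5 were called lower (IGFBP2, IGFBP4, IGFBP6, IGFBP7 and IGF2R) and 2 were not called (IGFBP3 and IGF1R). The counts in this paragraph include IGFBP1, which entered the test through its LINC00862 counts alone. The share called was 80%, against 64.2% of all genes, and 8 of the 10 had no overlap between the groups, against 71.1% of all genes. Their median log2 fold change was -0.35, against 0.11 over all tested genes. The spread was wide, from the complete absence of IGFBP1 counts in Empty to a fall of IGFBP7 by 5.81 on the log2 scale.

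**Figure D1:**
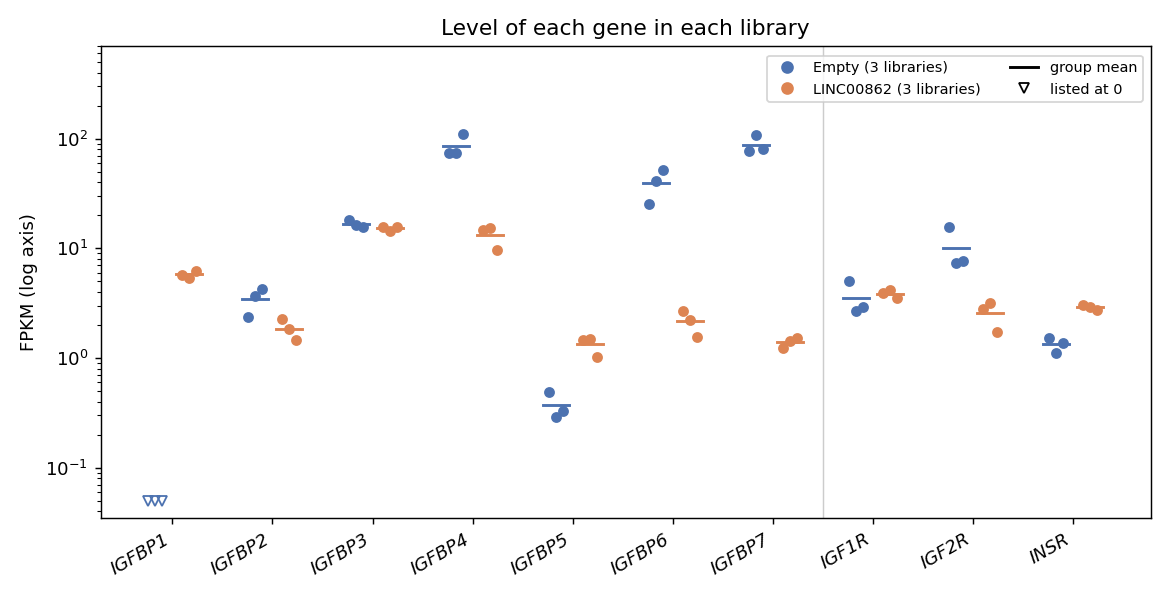
FPKM (log axis) of the 10 genes in each of the 3 Empty and 3 LINC00862 libraries, with horizontal bars at the group means and open triangles for libraries in which the gene is listed at 0. IGFBP4, IGFBP6 and IGFBP7 stand far lower in all LINC00862 libraries, IGFBP1 appears in LINC00862 alone, and the points of IGFBP3 and IGF1R overlap between the groups.

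The FPKM scale divides by transcript length, so levels of different genes can be ordered on it. In Empty, IGFBP7 (88.2 ± 16.6, SD, n = 3) and IGFBP4 (86.5 ± 21.6) were the most abundant and did not differ beyond their spread. They were followed by IGFBP6 (39.6 ± 13.3), IGFBP3 (16.7 ± 1.23) and IGF2R (10.2 ± 4.69), whose highest library reached the lowest of IGFBP3, then by IGF1R (3.56 ± 1.28) and IGFBP2 (3.44 ± 0.997), which again lay within each other's spread, and by INSR (1.33 ± 0.206) and IGFBP5 (0.372 ± 0.105). In LINC00862 the order was led by IGFBP3 (15.2 ± 0.757) and IGFBP4 (13.2 ± 3.15), whose libraries overlapped. Behind them stood IGFBP1 (5.79 ± 0.426), IGF1R (3.87 ± 0.338), INSR (2.91 ± 0.144) and IGF2R (2.58 ± 0.748), and then IGFBP6 (2.16 ± 0.562), IGFBP2 (1.85 ± 0.412), IGFBP7 (1.39 ± 0.141) and IGFBP5 (1.34 ± 0.261). From INSR downward, each gene overlapped its neighbour in this order.

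IGFBP1 (ENSG00000146678, chr7:45888360-45893660, plus strand), a binding protein made largely by the liver and lowered by insulin in healthy tissue, had no count in any Empty library. LINC00862 libraries 1 to 3 had 720, 587 and 689 counts, and its FPKM there was 5.73, 5.40 and 6.25. The LINC00862 libraries therefore lay close together and apart from Empty. Taking 3 counts per library as the floor, IGFBP1 was at least 238-fold higher in LINC00862, with higher values in 3 of 3 libraries. It was among the genes called by edgeR, but since it entered the test through the group where it was high, its p-value is not given as support. The floor covers counting error only.

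IGFBP3 (ENSG00000146674, chr7:45912245-45921274, minus strand), the main carrier of IGFs in serum, lies 18584 bases from IGFBP1 with 0 genes of the table between them. Its FPKM was 17.99, 16.41 and 15.58 in Empty and 15.57, 14.35 and 15.73 in LINC00862. The groups overlapped, with LINC00862 library 3 above Empty library 3. The log2 fold change was 0.05 ± 0.135 (SE, adjusted p = 0.762 by edgeR), and an exact permutation test on FPKM gave p = 0.2. Its sign differed between scalings, with -0.12 for library size only. The neighbours on chromosome 7 thus differed, since IGFBP1 had counts in LINC00862 alone, while the levels of IGFBP3 overlapped between the groups.

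IGFBP5 (ENSG00000115461, chr2:216672105-216695549, minus strand), a binding protein that attaches to the extracellular matrix, had an FPKM of 0.491, 0.294 and 0.332 in Empty and 1.47, 1.5 and 1.03 in LINC00862. Every LINC00862 library stood above every Empty library, although the level remained low in both groups. The ratio of the mean FPKM was 3.59 and the log2 fold change 2.02 ± 0.255 (SE, adjusted p = 0.000123 by edgeR).

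IGFBP2 (ENSG00000115457, chr2:216632828-216664436, plus strand) lies 7668 bases from IGFBP5, again with 0 genes between, and is a binding protein abundant in fetal tissues and serum. Its FPKM was 2.35, 3.67 and 4.30 in Empty and 2.27, 1.83 and 1.45 in LINC00862. The groups did not overlap, but Empty library 1 exceeded LINC00862 library 1 only slightly. The log2 fold change was -0.74 ± 0.277 (SE, adjusted p = 0.0405 by edgeR). The call was lost in 7 of 13 alternative settings, among them upper quartile scaling and the fits without Empty library 2 or 3 or without LINC00862 library 2 or 3. The neighbours on chromosome 2 were called in opposite directions, IGFBP5 higher and IGFBP2 lower.

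IGFBP4 (ENSG00000141753, chr17:40443450-40457725, plus strand), a binding protein that the protease PAPPA cleaves, had an FPKM of 74.3, 73.8 and 111 in Empty and 14.7, 15.3 and 9.58 in LINC00862. The lowest Empty library was well above the highest LINC00862 library. The mean was 6.55 times higher in Empty, and the log2 fold change was -2.56 ± 0.241 (SE, adjusted p = 1.97e-05 by edgeR).

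IGFBP6 (ENSG00000167779, chr12:53097436-53102345, plus strand), which binds IGF2 in preference to IGF1, had an FPKM of 25.6, 41.3 and 52.0 in Empty and 2.69, 2.21 and 1.57 in LINC00862. Within Empty, library 1 was the lowest, and no library of the groups overlapped. The mean was 18.4 times higher in Empty (log2 fold change -4.05 ± 0.33, SE, adjusted p = 7.97e-06 by edgeR).

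IGFBP7 (ENSG00000163453, chr4:57030773-57110385, minus strand), a matrix-associated relative that binds IGFs only weakly, showed the deepest fall of the 10 genes. Its FPKM was 76.8, 107 and 80.7 in Empty and 1.24, 1.43 and 1.51 in LINC00862, with counts of 9813, 13507 and 10392 against 184, 183 and 196. The mean was 63.4 times higher in Empty, and the log2 fold change was -5.81 ± 0.236 (SE, adjusted p = 1.46e-07 by edgeR). The gene overlaps POLR2B by 386 bases on the other strand and IGFBP7-AS1 by 624 bases, and no source used here states whether the counting used strand. POLR2B had 5763 to 13082 counts and IGFBP7-AS1 had 0 to 13 counts per library.

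**Figure D2:**
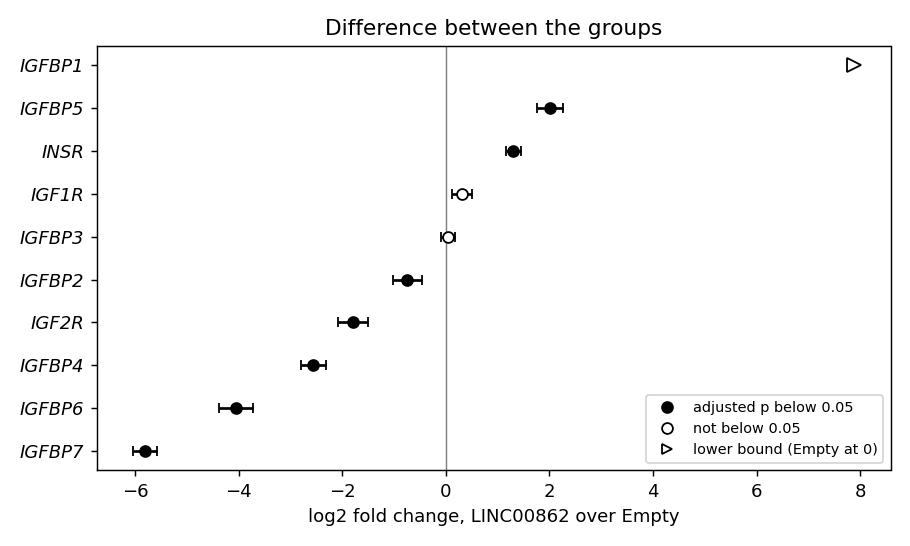
Log2 fold change (LINC00862 over Empty) of the 10 genes from edgeR, with bars of 1 SE and the lower bound in place of a fold for IGFBP1. IGFBP7, IGFBP6 and IGFBP4 lie farthest to the left, and IGFBP3 and IGF1R lie near 0 and were not called.

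The receptors differed in their results. IGF1R (ENSG00000140443, chr15:98648539-98964530, plus strand), the receptor that carries the growth signal of IGF1 and IGF2, had an FPKM of 5.03, 2.70 and 2.93 in Empty and 3.94, 4.17 and 3.50 in LINC00862. All LINC00862 libraries lay inside the range of Empty, whose library 1 was the highest of the 6. The log2 fold change was 0.31 ± 0.201 (SE, adjusted p = 0.202 by edgeR), and the exact permutation test gave p = 0.8. Without Empty library 1 the log2 fold change was 0.58 and passed the test (adjusted p = 0.00237 by edgeR).

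INSR (ENSG00000171105, chr19:7112255-7294414, minus strand), the insulin receptor, had an FPKM of 1.51, 1.11 and 1.38 in Empty and 3.05, 2.93 and 2.76 in LINC00862. The groups were apart and the LINC00862 libraries lay close together. The mean was 2.19 times higher in LINC00862 (log2 fold change 1.31 ± 0.15, SE, adjusted p = 6.85e-05 by edgeR).

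IGF2R (ENSG00000197081, chr6:159969082-160113507, plus strand), the mannose 6-phosphate and IGF2 receptor, had an FPKM of 15.6, 7.29 and 7.67 in Empty and 2.83, 3.17 and 1.73 in LINC00862. Empty library 1 was the highest of the 6, and all Empty libraries exceeded all LINC00862 libraries. The mean was 3.95 times higher in Empty, and the log2 fold change was -1.80 ± 0.288 (SE, adjusted p = 0.000529 by edgeR).

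The high receptor values of Empty library 1 accompanied a trend over transcript length in that library. Length was taken as the count divided by the FPKM, in the 11071 genes whose count reached 100 in each of the 6 libraries. Across these genes, which are not independent, the log2 ratio of Empty library 1 to the mean of the other Empty libraries correlated with length at a Spearman rho of 0.579, with medians of -0.43 in the shortest and 0.34 in the longest quartile. IGF2R, IGF1R and INSR lay at the 98, 95.3 and 89.2 percentiles of length, whereas IGFBP6, IGFBP7 and IGFBP4 lay at the 4.18, 8.74 and 11.4 percentiles. The ratio of LINC00862 to Empty had a rho of 0.0117 with length. The part of this trend in the results for single genes was not tested beyond the fits that left the library out.

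Ratios within a library do not depend on its scaling. The FPKM of IGF1R was 3.33, 2.44 and 2.13 times that of INSR in Empty and 1.29, 1.42 and 1.27 times in LINC00862, so IGF1R exceeded INSR in all 6 libraries and by less in LINC00862. The difference in the log2 ratio was -0.96, with an exact permutation p of 0.1, below which 3 against 3 libraries cannot go. The FPKM of IGF2R was 3.10, 2.70 and 2.61 times that of IGF1R in Empty and 0.718, 0.760 and 0.495 times in LINC00862, again without overlap (exact permutation p = 0.1). IGF2R was thus above IGF1R in each Empty library and below it in each LINC00862 library. The summed FPKM of IGF1R and INSR was 4.89 ± 1.46 in Empty and 6.78 ± 0.452 in LINC00862 (SD, n = 3, exact permutation p = 0.2).

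The sequence before the start of IGF2R and of INSR is shown because these receptors were called in opposite directions. Both stretches are the 250 bases upstream of the transcription start in RefSeq (GRCh38.p14), written 5′ to 3′ on the strand of the gene. IGF2R covers chr6:159968832-159969081 (plus strand) and INSR covers chr19:7294415-7294664 (minus strand). Capitals mark GGGCGG, the core of the GC box, and CACGTG, the E-box palindrome, on either strand, and overlapping copies of GGGCGG were counted separately.
IGF2R: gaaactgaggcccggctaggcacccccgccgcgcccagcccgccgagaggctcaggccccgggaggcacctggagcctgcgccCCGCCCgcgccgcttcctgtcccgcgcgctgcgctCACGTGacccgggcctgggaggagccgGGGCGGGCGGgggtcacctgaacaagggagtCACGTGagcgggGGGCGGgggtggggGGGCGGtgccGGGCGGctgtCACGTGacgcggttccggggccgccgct
INSR: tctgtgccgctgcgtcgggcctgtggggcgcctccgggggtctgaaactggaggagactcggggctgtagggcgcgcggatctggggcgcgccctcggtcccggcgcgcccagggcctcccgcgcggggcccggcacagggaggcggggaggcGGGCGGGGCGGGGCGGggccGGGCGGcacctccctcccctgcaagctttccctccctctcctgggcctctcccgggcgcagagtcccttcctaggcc
IGF2R held 6 copies of GGGCGG and 3 of CACGTG, and INSR held 4 copies of GGGCGG and 0 of CACGTG. Over 35116 RefSeq windows of 300 bases (250 before to 50 after a start), 45% held GGGCGG and 15.8% held 3 or more copies, while 7.26% held CACGTG and 0.094% held 3 or more. The GC content of the 300-base window was 78.7% for IGF2R and 78.3% for INSR, against a median of 58.7%. Windows were present for 8 of the 10 genes. These letters are a description of the window and not evidence of binding.

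The make-up of the binding protein transcripts was compared as the share of each gene in the summed FPKM of the 7 IGFBP genes. The sum was 198, 243 and 264 in Empty and 43.7, 42.0 and 37.1 in LINC00862, so each LINC00862 library held less binding protein transcript than any Empty library (exact permutation p = 0.1). IGFBP7 took 38.9%, 44.2% and 30.5% of the sum in Empty and 2.83%, 3.40% and 4.07% in LINC00862. IGFBP3, which was not called, took 9.11%, 6.76% and 5.89% in Empty and 35.6%, 34.1% and 42.4% in LINC00862. Its mean share was thus 30.1 percentage points higher in LINC00862, while its own levels overlapped between the groups.

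IGFBP1 took 14.3% ± 2.22 (SD, n = 3) of the sum in LINC00862 and 0% in Empty, a difference of 14.3 percentage points that was 7.3 with CPM, which does not divide by length. IGFBP6 took 16.5% ± 3.37 in Empty and 5.22% ± 0.965 in LINC00862. The share of IGFBP4 overlapped between the groups (36.7% ± 5.92 and 32.0% ± 5.51, exact permutation p = 0.4), although its level fell. The difference of -4.76 percentage points was -7.91 without Empty library 2, -2.04 without Empty library 3 and -1.67 without LINC00862 library 3, and -15.2 on the CPM scale. IGFBP2 and IGFBP5 were minor components in both groups, at 1.44% ± 0.228 and 0.165% ± 0.0723 in Empty and 4.48% ± 0.657 and 3.24% ± 0.408 in LINC00862. The shares other than that of IGFBP4 did not overlap between the groups, each with an exact permutation p of 0.1. These are not separate results, because the shares of a library are parts of the same sum and a fall of one raises the others. For IGFBP1, at 0% in Empty, the lack of overlap follows from its counts. In each Empty library IGFBP4 and IGFBP7 were the most abundant components, and in each LINC00862 library IGFBP3 and IGFBP4 were.

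**Figure D3:**
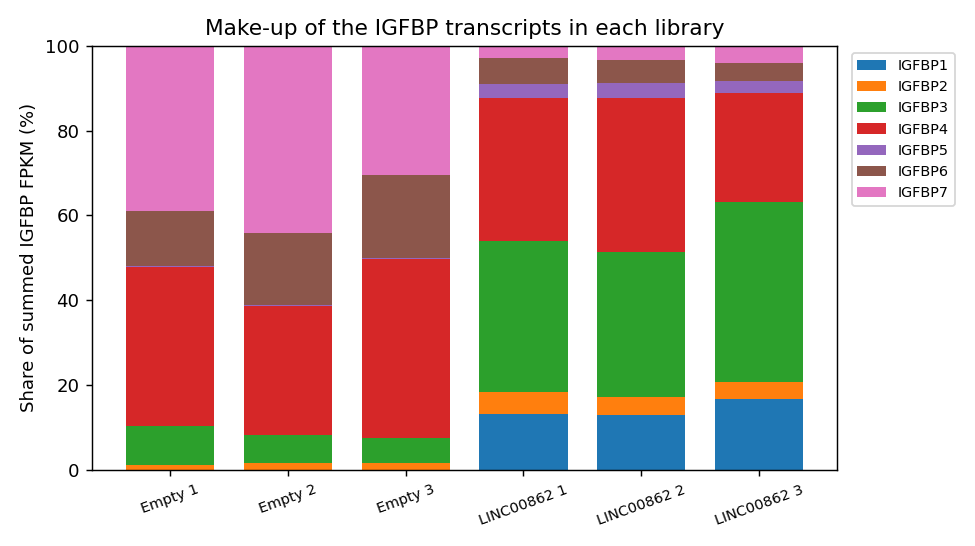
Share of each of the 7 binding protein genes in their summed FPKM (%), as 1 stacked bar per library. IGFBP7 and IGFBP4 fill most of the 3 Empty bars, and IGFBP3 and IGFBP4 fill most of the 3 LINC00862 bars, where IGFBP1 also appears.

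The other genes of the axis were taken from 8 lists holding 95 genes, of which 84 were tested, 22 were called higher and 38 lower. The share called was 71.4%, against 64.2% of all genes, and the median log2 fold change was -0.40. These counts include genes that entered the test through the group where they were high, among them IGFBPL1, MMP7, PAPPA2 and IGF2BP1. The ligand IGF2 was near or below detection. It was listed at 0 FPKM in all Empty libraries and at 0.0248, 0 and 0.0148 in LINC00862 and was not tested. IGF1 and INS had no values under these names. Among the 8 ligands and carriers 2 were tested, with 1 called higher and 0 lower, a share of 50% against 64.2% of all genes. The 1 called was IGFBPL1, with 0 counts in each Empty library and 52, 68 and 48 in LINC00862. It thus entered the test through its LINC00862 counts alone, and its call is not given as support. Without any 1 Empty library, 3 were called higher, but the filter then let more genes into the test (21811 to 21938 in place of 20741).

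All 10 proteases of the binding proteins and their inhibitors were called, 4 higher and 6 lower (median log2 fold change -0.72), where 64.2% of all genes were called. MMP7, the matrix metalloproteinase matrilysin, showed the largest rise, from 0.0260, 0.0220 and 0.0420 FPKM in Empty to 4.45, 3.82 and 4.17 in LINC00862. HTRA1, a secreted serine protease, showed the largest fall, from 32.4, 37.3 and 40.2 FPKM to 0.312, 0.373 and 0.441. For both genes the groups were far apart, with log2 fold changes of 7.13 for MMP7 and -6.41 for HTRA1 (adjusted p = 1.14e-07 by edgeR for HTRA1). MMP7 had 4, 4 and 7 counts in Empty and entered the test through its LINC00862 counts, so its p-value is not given as support. PAPPA2, another protease of the list, had 0, 8 and 0 counts in Empty and entered in the same way. Both genes are in the counts of this list, and their calls are not given as support. PAPPA, the protease that cleaves IGFBP4, was called higher (0.373, 0.230 and 0.167 FPKM in Empty, 1.13, 0.979 and 0.771 in LINC00862), and its inhibitors STC1 and STC2 were called lower, with log2 fold changes of -0.88 and -0.57. These 3 genes were picked for their link to IGFBP4 after their values were seen.

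Among 19 tested receptor adaptors and feedback proteins 5 were called higher and 6 lower (median log2 fold change 0.16), and the 5 became 8 with upper quartile scaling or without Empty library 1. The share called was 57.9%, below the 64.2% of all genes. The docking proteins that carry the signal of IGF1R and INSR were called in opposite directions. IRS1 had an FPKM of 6.20, 3.06 and 2.99 in Empty and 0.328, 0.356 and 0.155 in LINC00862 (log2 fold change -3.68, adjusted p = 2.2e-05 by edgeR). IRS2 had an FPKM of 5.80, 3.26 and 3.84 in Empty and 19.98, 20.65 and 18.72 in LINC00862 (log2 fold change 2.39, adjusted p = 6.99e-06 by edgeR). The levels of IRS1 and IRS2 were alike in Empty and far apart in LINC00862. GRB14, an adaptor that inhibits the insulin receptor kinase, showed the largest rise of the list, from 0.0378, 0.0873 and 0.0640 FPKM to 10.63, 11.44 and 12.96 (log2 fold change 7.63). SH2B3, also known as LNK, showed the largest fall (log2 fold change -3.86).

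Of 24 genes of the PI3K, AKT and FOXO branch 6 were called higher and 12 lower (median -0.45), and the 12 became 7 with upper quartile scaling. The share called was 75%, against 64.2% of all genes. FOXO1, a transcription factor that AKT keeps out of the nucleus and that drives IGFBP1 in liver, had an FPKM of 0.895, 0.664 and 0.530 in Empty and 3.73, 4.01 and 3.53 in LINC00862. This was the largest rise of the list, with a log2 fold change of 2.62 (adjusted p = 5.09e-06 by edgeR). The other FOXO genes of the list did not rise with it. FOXO3 was called lower, from a mean of 6.46 FPKM to 1.31 (log2 fold change -2.10, adjusted p = 5.65e-05 by edgeR). FOXO4 was not called (log2 fold change 0.30, adjusted p = 0.25 by edgeR). A link of these genes to the level of IGFBP1 was not tested.

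The IGF2 mRNA-binding proteins, which hold RNAs in the cytoplasm, counted 0 calls higher and 2 lower among 3. This share of 66.7% is near the 64.2% of all genes. IGF2BP1 had 2144, 1260 and 1451 counts in Empty and 8, 0 and 0 in LINC00862. It entered the test through its Empty counts alone, and its call is not given as support. Of 12 genes of mannose 6-phosphate sorting, the route served by IGF2R, 4 were called higher and 5 lower (median -0.18). Their share called was 75%, against 64.2% of all genes. The 5 lower became 2 with upper quartile scaling or without LINC00862 library 1, and 3 without Empty library 2 or LINC00862 library 2 or 3. AP1M2, the epithelial form of a subunit of the AP-1 clathrin adaptor, had a log2 fold change of 5.45, and AP1M1, the widespread form of the same subunit, had one of -1.44.

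Of 6 other surface proteins that bind IGF binding proteins, 0 were called higher and 4 lower (median -2.27), a share called of 66.7% that is near the 64.2% of all genes, with the deepest fall in the integrin subunit ITGB3 (log2 fold change -5.22). Among 8 tested relatives that carry an IGFBP domain, 2 were called higher and 3 lower (median -0.52), a share of 62.5% that is also near that of all genes. CCN3, a matricellular protein, rose from 7.40, 6.83 and 6.52 FPKM to 1312, 1236 and 1116, while CCN1, a member of the same family, fell from 340, 357 and 348 FPKM to 4.24, 4.28 and 4.44. The log2 fold changes were 7.64 and -6.16, and no library overlapped (adjusted p = 2.63e-08 and 3.84e-08 by edgeR).

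**Figure D4:**
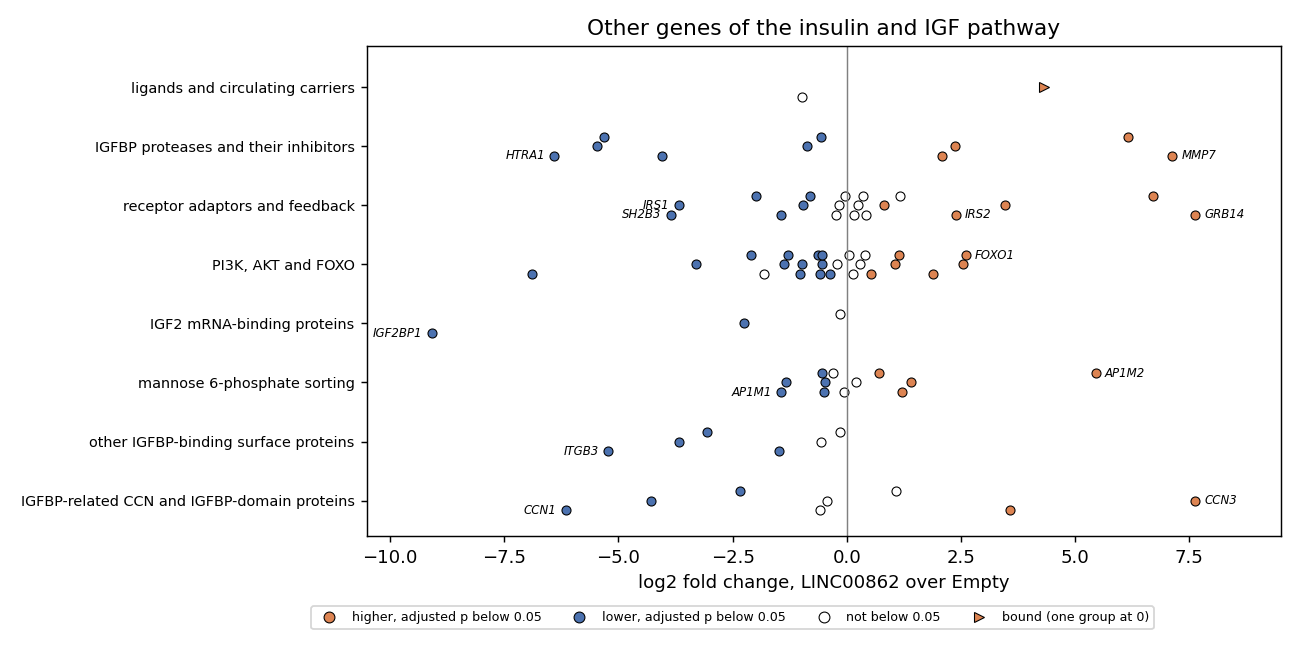
Log2 fold change (LINC00862 over Empty, edgeR) of each tested gene of the 8 pathway lists, 1 point per gene, filled where the adjusted p was below 0.05, with a triangle at the lower bound for a gene at 0 in one group. Every list holds both called and uncalled genes except the proteases and their inhibitors, where all 10 were called.

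Several cell type markers also differed between the groups, and their part in the results was not tested. In bulk RNA, fewer cells of a type and less RNA per cell cannot be told apart. The 5 mesenchymal markers were all called lower. Their summed FPKM, mostly VIM in both groups, was 560 to 619 in Empty and 5.61 to 5.78 in LINC00862. Among 5 epithelial markers 4 were called higher (sums of 194 to 287 and 437 to 500). Of 7 tested hepatocyte markers 5 were called higher and 2 lower, with sums of 3.05 to 3.59 and 539 to 618 that were mostly FGB. The shares called were 100%, 80% and 100% for mesenchymal, epithelial and tested hepatocyte markers, against 64.2% of all genes. These shares include ALB, APOB, TTR and KRT19, which entered the test through their LINC00862 counts alone. They also include AFP, which entered through its Empty counts alone. The calls of these genes are not given as support. ALB, the defining hepatocyte product, was at 0, 0 and 0.0234 FPKM in Empty and 1.61, 1.71 and 1.21 in LINC00862, and AFP, a marker of many hepatomas, was at 0.0660, 0.111 and 0.135 in Empty and at 0 in all LINC00862 libraries. ALB was thus at or near 0 in Empty, and AFP was low in Empty and at 0 in LINC00862.

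The 9 fibroblast and stellate cell markers had 2 calls higher and 3 lower, with sums of 47.1 to 58.3 in Empty and 12.6 to 16.2 in LINC00862. The sum was mostly THY1 in Empty and mostly COL1A1, which was called higher, in LINC00862. The 4 tested endothelial markers had 1 call higher and 0 lower (sums of 1.21 to 1.75 and 4.45 to 5.93), and the 5 leukocyte markers had 2 higher and 0 lower (3.50 to 4.16 and 9.56 to 15.4). These sums were low beside those of the epithelial markers in every library. The shares called were 55.6%, 25% and 40% for fibroblast and stellate, tested endothelial and leukocyte markers, below the 64.2% of all genes.

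The genes most like the extremes of the family were found by the Euclidean distance of log2(FPKM + 0.1) over the 6 libraries. For IGFBP1, the gene with the largest rise in mean FPKM, these were AL138826 (distance 0.167), ERICH2 (0.270) and C2CD4D (0.356), with means of 5.46, 6.04 and 5.12 FPKM in LINC00862 and at most 0.00199 in Empty. For IGFBP7, with the largest fall, they were BASP1 (0.623), the caveola protein CAV1 (0.938) and the actin-binding calponin CNN3 (1.07). Their means were 86.4, 108 and 120 FPKM in Empty and 1.64, 1.42 and 1.10 in LINC00862.

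The fold changes were recomputed under 13 alternatives of scaling, filter, tool, block and left-out library. The calls of IGFBP4, IGFBP5, IGFBP6, IGFBP7, IGF2R and INSR held in all 13. The log2 fold change of IGFBP7 lay between -5.97 and -5.21, that of IGFBP6 between -4.31 and -3.64, that of IGFBP4 between -2.71 and -2.29 and that of IGF2R between -1.97 and -1.43. IGFBP5 lay between 0.76 and 2.23 and INSR between 0.75 and 1.52, where the lowest values came from limma on log2(FPKM + 1).

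**Figure D5:**
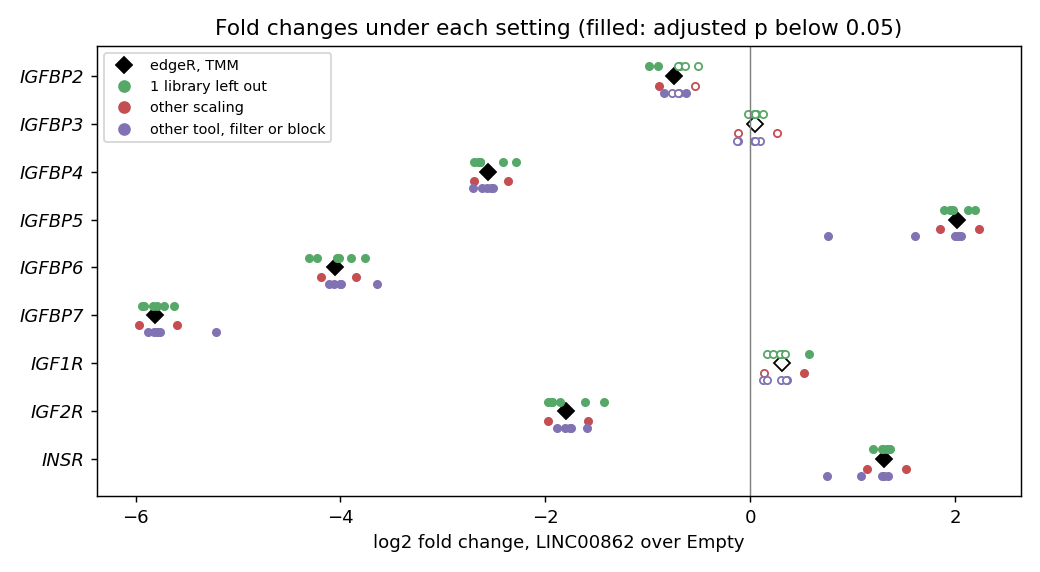
Log2 fold change (LINC00862 over Empty) of 9 of the genes under edgeR with TMM and under each alternative, filled where the adjusted p was below 0.05, without IGFBP1, whose fold is a lower bound. The open points of IGFBP2 and the filled points of IGF1R mark settings in which the call changed, and the points of IGFBP3 fall on both sides of 0.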

How the data were processed

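RNA of 3 Empty and 3 LINC00862 libraries was captured with oligo(dT), prepared with a strand-marking dUTP protocol and adapters with molecular identifiers, and sequenced in pairs. The submitters' processing notes name hg38, cutadapt 1.9, HISAT2 2.0.4, UMI-tools, StringTie 1.3.4d, DESeq2 and edgeR, without the role of each, and strand settings of the counting are not given in the sources used here. The authors deposited the raw read count per gene and library. The authors also deposited FPKM, scaled by transcript length and library. The 0 other columns of per-sample values were not needed.

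Counts were tested with edgeR 4.0.16 in R 4.3.3 (filterByExpr, TMM scaling, quasi-likelihood test, Benjamini-Hochberg adjustment over all 20741 tested genes, threshold 0.05). Standard errors were derived from the test statistic. Single FPKM values, shares and ratios were compared by a two-sided exact permutation test, whose smallest p is 0.1. Folds against a group at 0 used a floor of 3 counts per library. Alternatives used DESeq2 1.42.0, limma 3.58.1 on log2(FPKM + 1) and log2(FPKM + 0.1), other scalings, filters and thresholds, a test against a fold of 2, a replicate block and each library left out. The fits were also run on simulated counts in which few genes changed, equally in both directions. The groups here differed far more widely, so those runs cannot show how the scaling behaves in these data. All pairs of libraries differed by more than sampling noise, and each was 1 replicate.

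Genes named are the 10 genes, LINC00862 as a check, ALB and AFP as defining markers, IGF1, IGF2, INS, IRS1 and IRS2, the largest rise and fall among called genes of each list whose mean FPKM reached 1 in a group, and the 3 genes nearest in pattern to the largest rise and fall. Other genes were chosen after their values were seen. A gene that this rule selects is not reported here. The 10 genes and the lists were chosen with earlier results of these data known. Positions are those of the deposited table (hg38). Coordinates of 4 of the 10 genes were the same in GENCODE 29, which was used for coding sequence only. Figures were made with Python 3.11.15 and matplotlib 3.10.9.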

Additional observations from a re-analysis of the deposited data

How the results depend on the processing

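Precision was set by 3 libraries per group, and low genes were limited by counting. The log2 fold change of IGFBP2 (-0.74) no longer passed with upper quartile scaling (-0.54), with every gene of at least 1 count (-0.76) or with the replicate block (-0.70, adjusted p = 0.0912 by edgeR), and leaving out each library in turn gave -0.99 to -0.51, without a call when Empty 2, Empty 3, LINC00862 2 or LINC00862 3 was left out. IGFBP3, never called, changed sign with library size only (-0.12), limma on log2(FPKM + 1) (-0.12) and log2(FPKM + 0.1) (-0.13) and without LINC00862 library 3 (-0.0232), with a range of -0.0232 to 0.126 over left-out libraries. IGF1R passed with upper quartile scaling (0.53) and without Empty library 1 (0.58), in a range of 0.16 to 0.58.

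Among list counts, upper quartile scaling gave 2 sorting genes lower in place of 5, 7 PI3K, AKT and FOXO genes lower in place of 12 and 8 adaptors higher in place of 5. The test against a fold of 2 gave 2 sorting genes higher and 2 lower, 3 PI3K, AKT and FOXO genes higher and 5 lower, and 3 adaptors lower. A false discovery rate of 0.01 gave 2 sorting genes lower, the replicate block gave 3, and left-out libraries gave 2 to 5, with 2 without LINC00862 library 1 and 3 without Empty library 2 or LINC00862 library 2 or 3. Ligands called higher were 3 with every gene of at least 1 count and 1 to 3 over left-out libraries, with 3 without any 1 Empty library and 2 without LINC00862 library 2 or 3. Ligands called lower were 0 to 1, the 1 without Empty library 1, and adaptors called higher were 5 to 8, with 8 without Empty library 1. The cause was not tested, except that the test against a fold and the lower rate are stricter by construction.

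With CPM in place of FPKM, the difference in share in percentage points was 7.3 for IGFBP1, 38 for IGFBP3, -15.2 for IGFBP4, 6.06 for IGFBP5 and -8.09 for IGFBP6. With IGFBP7 left out of the sum it was 2.31 for IGFBP2, -25.8 for IGFBP4 and -21.3 for IGFBP6, against -4.76 for IGFBP4 in the full sum. Libraries with the same number showed no shared deviation (r = -0.049, -0.025 and -0.0074), which cannot show whether they were handled in pairs. The replicate block lowered the number of genes called from 13321 to 12098. The test against a fold of 2 left 8010, and leaving out each library gave 12063 to 14285.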

Other observations

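Some genes of the axis lay below the filter on low counts and were not tested in the fit of all 6 libraries. IGFALS, the acid-labile subunit that holds IGFBP3 and IGFs in a large complex in serum, had 4, 4 and 3 counts in Empty and 34, 9 and 34 in LINC00862. INSL3, a relaxin-like hormone, had 0 counts in each Empty library and 30, 17 and 5 in LINC00862. Both genes were picked after their values were seen.

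PIK3R2, a regulatory subunit of PI3K that was picked for the same reason, had an FPKM of 14.4, 11.4 and 12.9 in Empty and 5.37, 0.0373 and 4.11 in LINC00862, with counts of 2120, 15 and 1424 in the latter group. LINC00862 library 2 thus stood far from the other libraries of its group for this gene, and the gene was not called (log2 fold change -1.82, adjusted p = 0.144 by edgeR).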
